A study of Mus musculus with 6 samples.

Results

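Keratin transcripts were described in sorted lung epithelium of E16.5 (embryonic day) mice of 2 genotypes. Members were the rows of the deposited count table whose Entrez identifier maps to 9 named keratin symbols, out of 54 keratin genes and 27179 genes in all. The 6 simple-epithelial keratins were Krt7, Krt8, Krt18, Krt19, Krt23 and Krt80, and Krt5, Krt14 and Krt15, known from basal cells, were taken as contrast. RNA came from EpCAM-positive cells that had been sorted by flow cytometry from digested lungs. The knockout, Grhl2_cKO (Shh-Cre;Grhl2f/-), carried Shh-Cre, a floxed Grhl2 allele and a null allele (replicates 1, 5 and 10). The control (Shh-Cre;Grhl2f/+) carried Shh-Cre, a floxed allele and an intact allele (replicates 1, 3 and 7). Cre was thus present in both genotypes, it is driven by the Sonic hedgehog gene and acts where that gene is active, and control cells reached by it keep a single Grhl2 copy. Grhl2_cKO replicate 1 and control replicate 7 were female and the other 4 samples male. The labels do not say whether a sample is 1 embryo or a pool, and the p-values below rest on the spread among these 6 samples, which may be technical.

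Keratins form the intermediate filaments of epithelial cells. Each filament is built from heterodimers of an acidic type I and a basic type II chain, so a cell needs both types. Krt8 (type II) and Krt18 (type I) are the first keratins of the embryo and mark simple epithelia, Krt7 (type II) and Krt19 (type I) accompany them in lung and ducts, and Krt5 (type II) with Krt14 (type I) marks basal cells of stratified and pseudostratified epithelia. Grhl2 encodes grainyhead-like 2, a transcription factor of epithelial cells that binds a short palindromic DNA word.

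Totals were 15440843 to 17228762 counts in Grhl2_cKO and 13472216 to 16386541 in control libraries. Levels are given as CPM, counts scaled per 1e6 after adjustment of library sizes, and levels of different genes are compared only as CPM per kilobase of the gene length in the deposited table. Grhl2 stood at 105, 109 and 115 CPM in Grhl2_cKO and at 149, 148 and 146 CPM in control replicates 1, 3 and 7 (log2 fold change -0.43 ± 0.06 SE, edgeR adjusted p = 0.0026). Exons outside the deleted part can still give reads. Epcam, the gene of the sorted surface protein, was also lower, at 335, 346 and 403 CPM in Grhl2_cKO and 559, 544 and 501 CPM in control (edgeR adjusted p = 0.00412). The part of this change in the keratin values was not tested. In bulk RNA, fewer cells of a type and less RNA per cell cannot be told apart.

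The promoters of 4 simple keratins are shown because the deleted gene encodes a DNA-binding factor and because Krt8 and Krt18 lie side by side. RefSeq promoter sequences (build GRCm38.p6, 250 bases before and 50 after the annotated start) were matched for 6 of the 9 members: Krt7, Krt8, Krt18, Krt23, Krt5 and Krt14. The Krt14 window (chr11:100205981-100206280, minus strand) lies inside the span of its gene (100203162 to 100207510). It is therefore not the sequence before the outer start of Krt14. Capitals mark the searched words that were found, a GC box (GGGCGG or its complement) or a TATA word (TATAAA or its complement). Krt23 lies at chr11:99493071-99493370 on the minus strand, Krt8 at chr15:102004293-102004592 on the minus strand, Krt18 at chr15:102027966-102028265 on the plus strand and Krt7 at chr15:101412153-101412452 on the plus strand.
Krt23: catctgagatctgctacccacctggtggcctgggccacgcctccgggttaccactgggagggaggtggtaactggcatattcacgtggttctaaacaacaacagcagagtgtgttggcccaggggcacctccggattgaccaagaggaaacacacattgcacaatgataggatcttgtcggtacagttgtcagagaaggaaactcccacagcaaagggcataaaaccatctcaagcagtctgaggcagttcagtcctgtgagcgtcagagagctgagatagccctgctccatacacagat
Krt8: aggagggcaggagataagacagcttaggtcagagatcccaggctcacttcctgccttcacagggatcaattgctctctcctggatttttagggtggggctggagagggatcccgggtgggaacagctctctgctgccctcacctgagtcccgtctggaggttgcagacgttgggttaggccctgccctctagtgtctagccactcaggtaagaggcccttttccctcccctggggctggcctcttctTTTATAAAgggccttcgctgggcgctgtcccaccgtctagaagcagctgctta
Krt18: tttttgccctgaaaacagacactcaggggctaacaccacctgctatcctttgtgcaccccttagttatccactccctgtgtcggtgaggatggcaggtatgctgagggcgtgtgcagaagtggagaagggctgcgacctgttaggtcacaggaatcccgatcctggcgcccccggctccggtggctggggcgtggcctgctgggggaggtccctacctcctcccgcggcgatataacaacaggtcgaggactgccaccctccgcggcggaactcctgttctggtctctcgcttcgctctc
Krt7: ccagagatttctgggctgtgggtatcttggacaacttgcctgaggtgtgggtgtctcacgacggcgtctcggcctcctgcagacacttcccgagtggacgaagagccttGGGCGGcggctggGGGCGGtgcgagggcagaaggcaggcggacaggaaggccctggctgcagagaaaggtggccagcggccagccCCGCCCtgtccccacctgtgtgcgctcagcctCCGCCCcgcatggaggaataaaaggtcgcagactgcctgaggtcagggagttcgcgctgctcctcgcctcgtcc

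The grainyhead half-site pair AACNNGTT, searched on both strands, was found in none of the 6 promoters and in 4.2% of 32851 promoters of the same length. Its full core AACCGGTT, a case of the same word, was also in none of the 6 and in 0.146% of all. The AP-1 word TGANTCA was in none of the 6, against 7.81% of all. GC boxes occurred 4 times in the Krt7 promoter, at positions -141, -128, -56 and -24 from the annotated start, and in 35.7% of all promoters. The Krt8 promoter held overlapping TATA words on both strands at positions -3 and -1, and 13.6% of all promoters held such a word. The Krt18 and Krt23 promoters held none of the 5 words. These windows say only which letters stand next to the annotated starts, and the Krt14 window lies within its gene.

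By position, the members fall into the 2 keratin clusters of the mouse genome (mm10). Krt80 (Entrez 74127, 101348315 to 101370162), Krt7 (Entrez 110310, 101412403 to 101427806), Krt5 (Entrez 110308, 101707069 to 101712905), Krt8 (Entrez 16691, 101996711 to 102004342) and Krt18 (Entrez 16668, 102028216 to 102032026) lie on chromosome 15. Krt18 is the type I gene at the end of this type II cluster, 23.9 kb from Krt8. Grhl2 itself lies on chromosome 15, 64.0 Mb from the nearest of these keratins. Krt23 (Entrez 94179, 99477973 to 99493120), Krt15 (Entrez 16665, 100131759 to 100135949), Krt19 (Entrez 16669, 100140810 to 100145926) and Krt14 (Entrez 16664, 100203162 to 100207510) lie in the type I cluster of chromosome 11.

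Of the 9 members, 4 were abundant, 3 were low and 2 were close to absent. Ranked by mean CPM per kilobase over all genes of the table, Krt19 was 195th, Krt7 215th, Krt8 323rd and Krt18 460th in control, all within the top 2.33% of 19790 detected genes. In Grhl2_cKO the same genes ranked 257th, 265th, 528th and 634th. Krt15 was 5909th, Krt23 8489th and Krt80 11465th in control. Krt5 and Krt14 were 16228th and 19224th. Thus Krt15, grouped by the rule with the low-expressed basal keratins, stood above the simple keratins Krt23 and Krt80 in level per kilobase, in control and in Grhl2_cKO.

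**Figure D1:**
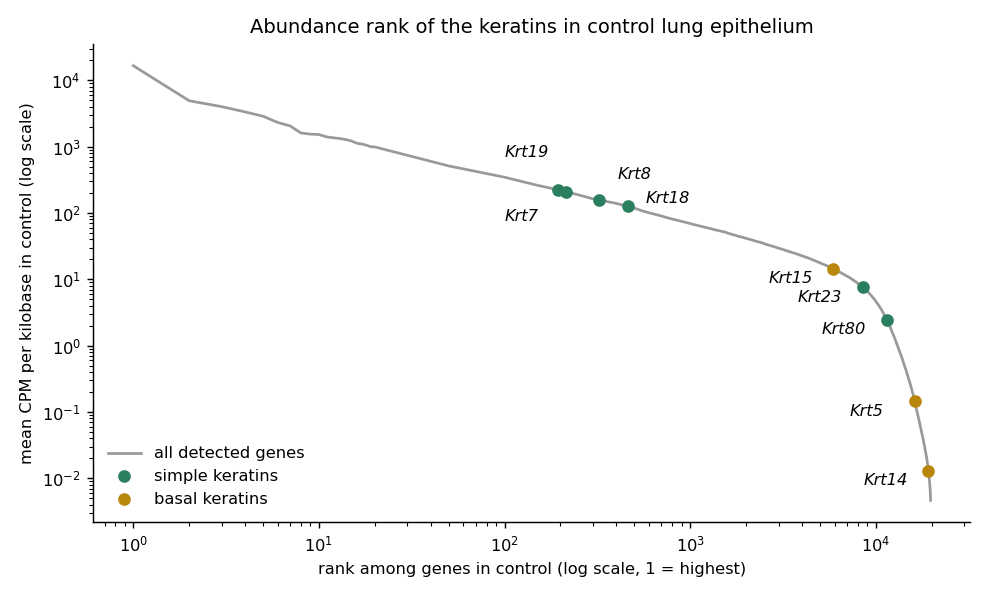
Mean CPM per kilobase in the 3 control libraries (log scale) against rank among all genes (log scale, 1 is the highest). The grey line joins all detected genes and points mark the keratins. Krt19, Krt7, Krt8 and Krt18 lie between ranks 195 and 460, Krt15 lies above Krt23 and Krt80, and Krt5 and Krt14 lie at the foot of the curve.

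Among the 4 abundant keratins the order was shared by the libraries at its lower end. Krt19 reached 192, 144 and 202 CPM per kilobase in Grhl2_cKO replicates 1, 5 and 10 and 318, 176 and 181 in control replicates 1, 3 and 7. Krt7 reached 178, 165 and 191 CPM per kilobase in Grhl2_cKO and 240.4, 185 and 200.5 in control. Krt8, the main type II keratin of simple epithelia, reached 114, 96.1 and 126 CPM per kilobase in Grhl2_cKO and 189, 137 and 142 in control. Krt7 and Krt19 exchanged first place between libraries, while Krt8 stood below both and Krt18 lowest of the 4 in all 6 libraries. In mean level, control Krt19 and Krt7 (225 ± 80.5 and 209 ± 28.6, SD, n = 3) did not differ beyond their spread. Krt8 and Krt18 averaged 156 ± 28.7 and 126 ± 25.3, and within each library Krt8 was the higher.

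The type II and type I simple keratins stayed near balance as groups. Per library, type II transcripts (Krt7, Krt8 and Krt80, summed CPM per kilobase) over type I transcripts (Krt18, Krt19 and Krt23) gave ratios of 1.04, 1.13 and 0.977 in Grhl2_cKO and 0.901, 1.11 and 1.136 in control. The mean ratio was 1.05 ± 0.08 in Grhl2_cKO and 1.05 ± 0.13 in control (SD, n = 3), and the groups overlapped. The 6 genes together held 574, 494 and 644 CPM per kilobase in Grhl2_cKO and 913, 617 and 649 in control. Control replicate 1 stood apart at 913, while Grhl2_cKO replicate 10 exceeded control replicate 3. All 9 members made up 98.5% to 98.7% of the keratin transcripts per kilobase in Grhl2_cKO libraries and 98.4% to 98.7% in control libraries.

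**Figure D2:**
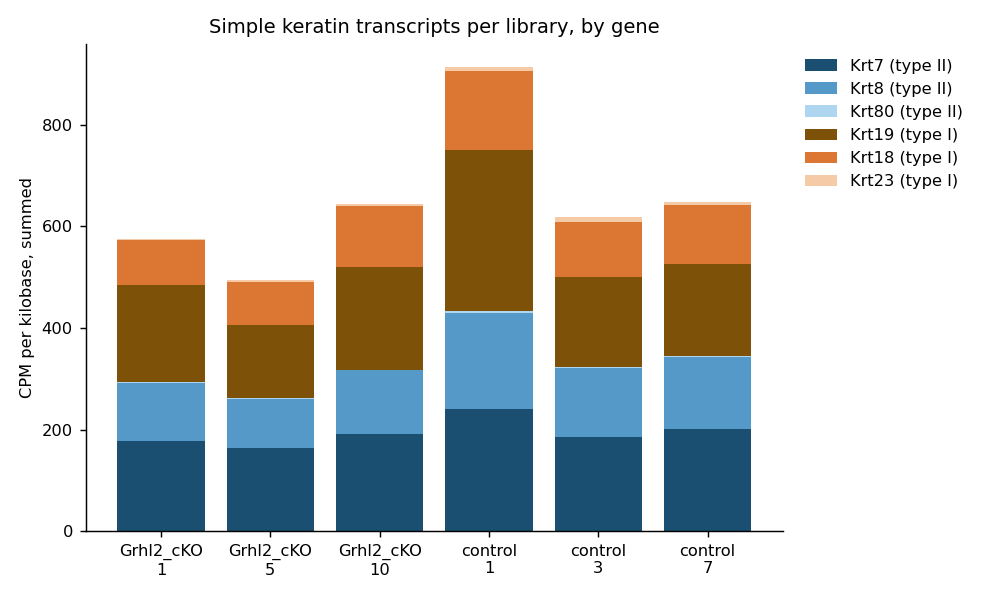
Stacked CPM per kilobase of the 6 simple keratins in each library, with the type II genes in blue and the type I genes in brown and orange. Grhl2_cKO libraries reach 494 to 644 and control libraries 617 to 913, the highest being control replicate 1. Krt23 and Krt80 are thin bands.

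Of 3 ratios within this pool, that of Krt7 to Krt8 was separate between genotypes. The level of Krt7 over that of Krt8, both per kilobase, was 1.56, 1.71 and 1.52 in Grhl2_cKO and 1.27, 1.35 and 1.41 in control replicates 1, 3 and 7. Every Grhl2_cKO library lay above every control library. Krt8 over Krt18, the classical partners, was 1.31, 1.135 and 1.05 in Grhl2_cKO and 1.22, 1.26 and 1.24 in control, with overlap, and a wider spread in Grhl2_cKO. Krt19 over Krt18 was 2.20, 1.70 and 1.68 in Grhl2_cKO and 2.05, 1.62 and 1.58 in control, again with overlap. These 3 ratios were chosen after the values were seen and were not tested. How often the ratios of other gene pairs separate was not counted. Krt7 and Krt8 had log2 fold changes of -0.23 ± 0.10 and -0.48 ± 0.13 SE, and neither was called in the main test.

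Between genotypes, all 6 simple keratins had a negative log2 fold change, and 2 of them, Krt23 and Krt80, fell (adjusted p under 0.05 in edgeR's quasi-likelihood test, with adjustment by Benjamini-Hochberg over 14842 genes). The background was 2.39% of tested genes called lower and 1.23% called higher. The median log2 fold change was -0.43 over the 6 simple keratins and 0.00 over all tested genes, of which 51.5% had a negative value. Without control replicate 1 the median of the 6 was -0.25, and Krt19 was no longer negative. All 3 Grhl2_cKO libraries lay below all 3 control libraries for Krt8, Krt23 and Krt80, and for 9.89% of tested genes. All 6 simple keratins passed the filter on low counts in both genotypes. Over all genes, 355 were called lower, but 166, 170 and 224 without Grhl2_cKO replicate 5, Grhl2_cKO replicate 10 and control replicate 3, and 182 were called higher, but 91, 79, 78 and 92 without these and without control replicate 7.

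**Figure D3:**
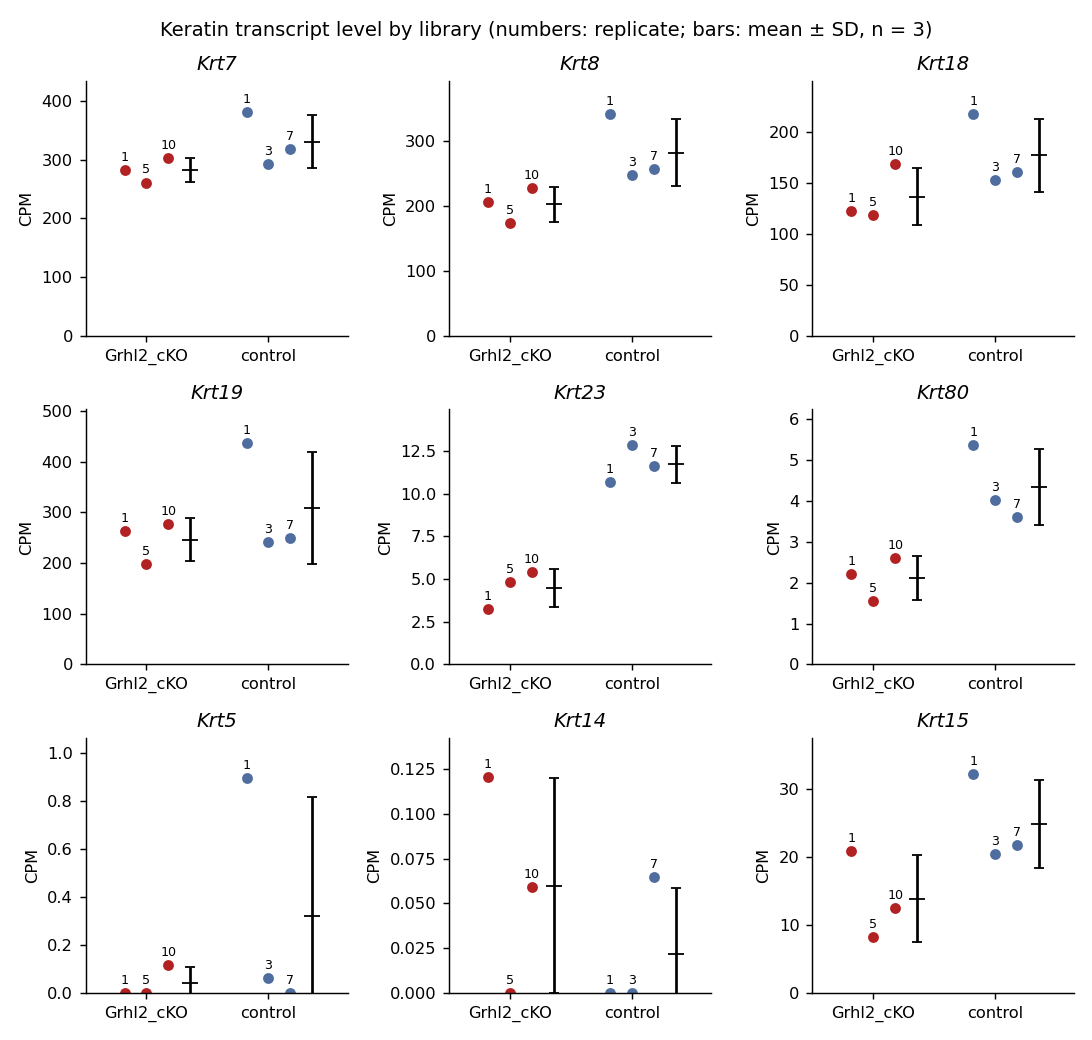
CPM of each member in each library (points, numbered by replicate) with the mean and SD beside them (n = 3; bars stop at 0), Grhl2_cKO in red and control in blue, on axes that start at 0. The genotypes are separate for Krt8, Krt23 and Krt80 and overlap for the other 6 members. Control replicate 1 is the highest library for Krt7, Krt8, Krt18, Krt19, Krt80, Krt5 and Krt15.

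Krt23, a type I keratin whose part in filaments is little studied, had the largest fold change of the tested members. It stood at 3.25, 4.82 and 5.39 CPM in Grhl2_cKO replicates 1, 5 and 10 and at 10.7, 12.8 and 11.6 CPM in control replicates 1, 3 and 7. The highest Grhl2_cKO library was well under the lowest control library. The mean was 4.48 ± 1.11 CPM in Grhl2_cKO and 11.7 ± 1.08 CPM in control (SD, n = 3 each). Its log2 fold change of -1.39 ± 0.18 SE (edgeR adjusted p = 0.00263) left 38.2% of control, with a 95% interval of 28.9% to 50.6%. The call held in 15 of 15 alternative settings, with adjusted p from 1.04e-08 to 0.0171.

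Krt80, a type II keratin found near desmosomes in human epithelia, was the other called member, at the edge of the threshold. It stood at 2.22, 1.54 and 2.61 CPM in Grhl2_cKO and 5.38, 4.02 and 3.61 CPM in control, from 24 to 44 counts and 56 to 72 counts per library. The groups were separate, by -1.01 ± 0.24 SE on the log2 scale (edgeR adjusted p = 0.0499), which is 49.6% of control with a 95% interval of 34.2% to 71.9%. The call was kept in 4 of 15 alternatives and lost when any single library was left out (adjusted p 0.0621 to 0.169; 0.0284 to 0.169 over its alternatives). An annotated antisense transcript overlaps Krt80 and shares 195 bases with it, and whether strand was used in counting is not stated in the labels, which leaves its counts uncertain.

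Krt8 was lower in every Grhl2_cKO library without passing the main test. It stood at 206, 174 and 227 CPM in Grhl2_cKO replicates 1, 5 and 10 and at 341, 247 and 257 CPM in the control libraries. The groups were separate. The log2 fold change came to -0.48 ± 0.13 SE (edgeR adjusted p = 0.0832), with a 95% interval of 58.9% to 87.6% of control. Without control replicate 1 it was -0.31. DESeq2 called it (adjusted p = 0.0022; 0.0022 to 0.258 over its alternatives), in a test that called 2.85% of genes lower and 1.66% higher. Krt8 shares 941 bases at 98.6% identity with the processed pseudogene Krt8-ps on chromosome 7, and overlaps a noncoding transcript on the other strand (102 shared bases). The labels do not state how such reads were counted, so its counts are uncertain to that extent.

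Krt18, the type I partner of Krt8, held 122, 119 and 168 CPM in Grhl2_cKO and 217, 152 and 160.5 CPM in control. The groups overlapped, as Grhl2_cKO replicate 10 stood above control replicates 3 and 7. The log2 fold change of Krt18 was -0.37 ± 0.15 SE (edgeR adjusted p = 0.317), with a 95% interval of 60.8% to 98.0% of control. Without control replicate 1 it was -0.19.

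Krt7, a type II keratin of lung and duct epithelia, held 282, 261 and 303 CPM in Grhl2_cKO and 381, 293 and 318 CPM in control. Grhl2_cKO replicate 10 lay above control replicate 3. The log2 fold change of -0.23 ± 0.10 SE did not pass (edgeR adjusted p = 0.321), its 95% interval was 73.5% to 98.9% of control, and without control replicate 1 it was -0.11. An annotated antisense transcript, Gm671, overlaps Krt7 on the other strand.

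Krt19, the lightest of the keratins and a type I chain, held 263, 198 and 278 CPM in Grhl2_cKO and 437, 242 and 249 CPM in control. Grhl2_cKO replicates 1 and 10 stood above control replicates 3 and 7. A log2 fold change of -0.33 ± 0.21 SE was measured (edgeR adjusted p = 0.629), with a 95% interval of 57.7% to 109.96% of control, which includes no difference. It rested on control replicate 1: without that library it was 0.01 (adjusted p = 0.983).

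**Figure D4:**
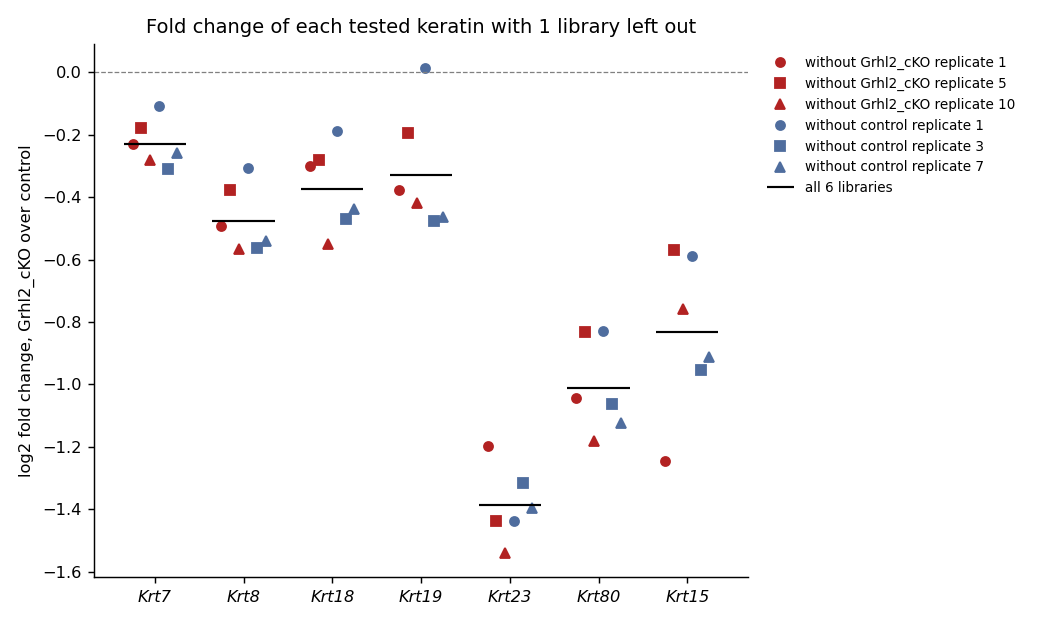
Log2 fold change of the 7 tested members, Grhl2_cKO over control, with all 6 libraries (black line) and with each library left out (points; red, a Grhl2_cKO library; blue, a control library). Krt23 stays between -1.54 and -1.20, Krt19 reaches 0.01 without control replicate 1, and Krt15 reaches -1.24 without Grhl2_cKO replicate 1.

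Of the basal keratins, Krt15 alone was measurable. This type I keratin, known from basal cells and hair follicle stem cells, held 20.9, 8.28 and 12.6 CPM in Grhl2_cKO replicates 1, 5 and 10 and 32.3, 20.4 and 21.8 CPM in control replicates 1, 3 and 7. Grhl2_cKO replicate 1 stood above control replicate 3, and the other Grhl2_cKO libraries stood below all controls. The log2 fold change was -0.83 ± 0.29 SE (edgeR adjusted p = 0.193; 0.0233 to 0.517 over its alternatives). Without Grhl2_cKO replicate 1 it was -1.24 and passed (adjusted p = 0.0233).

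Krt5 and Krt14, the basal cell pair, were at the floor. Krt5 had 0, 0 and 2 counts in Grhl2_cKO and 12, 1 and 0 counts in control replicates 1, 3 and 7. Krt14 had 2, 0 and 1 counts in Grhl2_cKO and 0, 0 and 1 counts in control. A count of 0 allows up to 3 counts, which is 0.178 to 0.193 CPM in Grhl2_cKO libraries and 0.183 to 0.224 CPM in control libraries, for counting error only. Neither gene passed the filter and no fold change is given. Other basal cell markers (Trp63, Ngfr, Dlk2, Aqp3 and Snai2) summed to 17.7, 15.5 and 12.1 CPM in Grhl2_cKO and 15.9, 19.5 and 14.7 CPM in control, and none of the 4 tested was called by edgeR or DESeq2, with an unadjusted p under 0.05 for 0 of them in edgeR, against 13.3% of all tested genes. Snai2 made up most of each sum, at 11.6, 11.4 and 8.47 CPM in Grhl2_cKO and 9.42, 15.6 and 11.2 CPM in control. Trp63 held only 0.842, 0.706 and 0.651 CPM in Grhl2_cKO and 0.747, 0.365 and 0.387 CPM in control. The sums therefore do not measure basal cells.

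The other 45 keratin genes were low. Of them 18 had no count in any library, 26 (these included) had under 3 counts in every library, and 6 were tested. None of the 6 was called by edgeR or by DESeq2, and 1 of them had an unadjusted p under 0.05 in edgeR. In edgeR 2.39% of all tested genes were called lower, 1.23% were called higher and 13.3% had such an unadjusted p. The lack of calls among 6 genes thus says little. Without control replicate 3, edgeR called 1 of the other keratins. Krt10, a type I keratin of suprabasal epidermis, was the highest at 4.57, 6.29 and 6.34 CPM in Grhl2_cKO and 5.60, 6.51 and 5.74 CPM in control, with a log2 fold change of -0.06 ± 0.17 SE (edgeR adjusted p = 0.972). Krt4, of the oesophagus and other internal stratified epithelia, stood at 2.59, 1.48 and 2.01 CPM in Grhl2_cKO and 9.86, 2.92 and 2.58 CPM in control. Its log2 fold change of -1.30 (edgeR adjusted p = 0.256) was -0.43 without control replicate 1. Krt87 and Krt79 averaged 2.08 and 1.52 CPM in Grhl2_cKO and 2.53 and 1.66 CPM in control (edgeR adjusted p = 0.855 and 0.962). Krt13, the partner of Krt4, held 0.301, 0.128 and 0.355 CPM in Grhl2_cKO and 3.59, 0.304 and 0.516 CPM in control, and was not tested.

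Genes that tie keratin filaments to junctions were lower in part. Of 13 listed linkers 12 were tested, 4 fell, none rose and 9 had a negative log2 fold change, with a median of -0.33 against 0.00 over all tested genes, of which 51.5% were negative. Of all tested genes 2.39% were called lower and 1.23% higher. The linker list was written with earlier results of these data known. Without control replicate 1 the median of the linkers was -0.22. Ppl, which encodes periplakin, fell to 52.0 to 63.7 CPM in Grhl2_cKO, against 93.9 to 117 CPM in control (56.0% of control, edgeR adjusted p = 0.00149). Evpl, which encodes its partner envoplakin, held 37.5, 38.5 and 39.6 CPM in Grhl2_cKO and 61.9, 47.6 and 58.2 CPM in control (log2 fold change -0.54 ± 0.09 SE, edgeR adjusted p = 0.0132). Dsp, encoding desmoplakin, which anchors keratin at desmosomes, held 202, 200.2 and 220.1 CPM in Grhl2_cKO and 311, 286 and 283 CPM in control (edgeR adjusted p = 0.00216). Pkp3, a plakophilin of the desmosomal plaque, held 34.9, 33.0 and 35.5 CPM in Grhl2_cKO and 46.4, 43.9 and 47.6 CPM in control (edgeR adjusted p = 0.00961). The groups were separate for all 4, which is no separate result, as they were named for being called. All 3 Grhl2_cKO libraries lay below all 3 control libraries for 9.89% of tested genes, and also for the uncalled linkers Jup and Plec. For Dst, also uncalled, they lay above. Evpl and Pkp3 lost the call without Grhl2_cKO replicate 5 (adjusted p = 0.0516 for each; 0.000116 to 0.0516 and 0.00195 to 0.0516 over their alternatives), which left 2 linkers called.

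The remaining linkers did not pass. Jup, encoding plakoglobin, had a log2 fold change of -0.38 ± 0.11 SE (edgeR adjusted p = 0.111) and passed in DESeq2 (adjusted p = 0.0125; 0.0125 to 0.325 over its alternatives), and without control replicate 1 it had -0.23. Plec, encoding plectin, had -0.28 ± 0.07 SE (edgeR adjusted p = 0.0587; 0.0243 to 0.171 over its alternatives). Dst, Itga6 and Itgb4, of the hemidesmosome that holds keratin to the basement membrane, had 0.29 ± 0.08, 0.06 ± 0.06 and -0.37 ± 0.14 SE (edgeR adjusted p = 0.115, 0.837 and 0.253). The plakophilin gene Pkp2, Macf1 and Eppk1 had -0.003 ± 0.08, 0.001 ± 0.06 and -0.16 ± 0.25 SE (edgeR adjusted p = 0.998, 0.998 and 0.921).

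**Figure D5:**
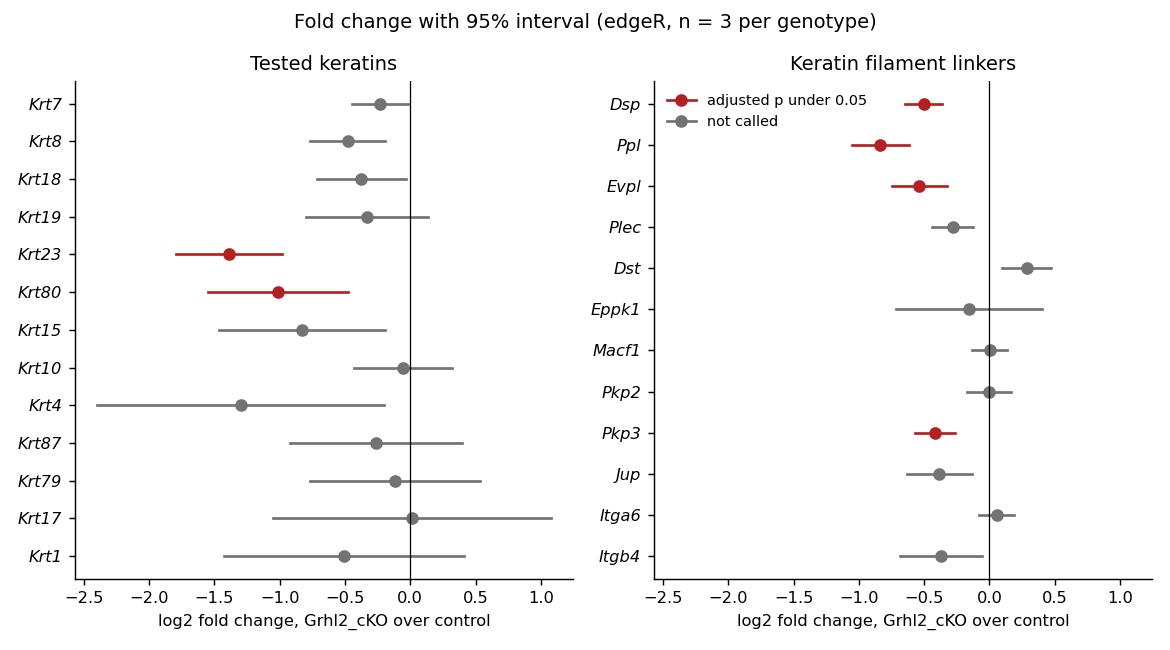
Log2 fold change, Grhl2_cKO over control, with its 95% interval (edgeR, n = 3 per genotype) for the 13 tested keratins on the left and the 12 tested keratin filament linkers on the right. Red marks adjusted p under 0.05: Krt23 and Krt80 among keratins, and Dsp, Ppl, Evpl and Pkp3 among linkers. The intervals of Krt4, Krt17 and Krt1 are wide.

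None of the genes of 3 further lists was called by edgeR, where unadjusted p lay under 0.05 for 3 of 17, 3 of 10 and 5 of 13 tested genes, beside 13.3% of all tested genes, and DESeq2 called 1, 1 and 0 of them. The 17 keratin handling proteins (chaperones, kinases, 14-3-3 proteins and ubiquitin ligase parts) had log2 fold changes from -0.56 to 0.13, with a median of 0.00, the lowest being Sfn, encoding 14-3-3 sigma (edgeR adjusted p = 0.088), which had -0.35 without control replicate 1 and was called without control replicate 3 (adjusted p = 0.0474). Of 15 other intermediate filament genes 10 were tested, with a median of 0.09. Vim, encoding the mesenchymal filament protein vimentin, held 273, 269 and 316 CPM in Grhl2_cKO and 250.5, 233 and 203 CPM in control, separate groups whose log2 fold change of 0.32 ± 0.09 SE did not pass (edgeR adjusted p = 0.0895; called with DESeq2, 0.00889, and without control replicate 1, 0.0361). Of 16 transcription factors linked to keratin genes 13 were tested, with a median of -0.20. Elf3, an epithelial ETS factor, had -0.68 ± 0.19 SE (edgeR adjusted p = 0.0951) and Grhl3, a relative of Grhl2, 0.45 ± 0.12 SE (edgeR adjusted p = 0.0899). Without control replicate 1 Elf3 had -0.42.

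Genes with the profile most like that of Krt8 were searched among 12193 genes (mean count at least 50), by the root mean square difference of centred log2 CPM over the 6 libraries. The nearest were Efcab1 (0.06), Errfi1 (0.06), the keratin linker Jup (0.06), the vesicle trafficking gene Rab25 (0.07) and the integrin gene Itga9 (0.07). Of these Rab25 was called in the main test, and lost the call in 6 of its alternatives. Among the members, Krt18 came 30th, Krt7 94th and Krt19 198th by likeness to Krt8, and Krt15 and Krt23 came 10128th and 11860th. The measure depends on the size of a change as well as its direction. Krt15 and Krt23 had log2 fold changes of -0.83 and -1.39, against -0.48 for Krt8, so their late places do not mean opposite profiles. Nearest to Krt23 were Lipg, a lipase gene (0.17), Naaladl2 (0.20), Tdrd1 (0.24), the copper chaperone gene Atox1 (0.24) and Mall (0.25), and all 5 were called lower, with edgeR adjusted p from 2.3e-05 to 0.0149. Likeness here rests on 6 libraries that share the genotype contrast. Genes near Krt23 are thus lower by the way they were chosen, and their calls are no separate result.

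Markers of other cells differed between libraries beside the keratins. The 6 mesothelial markers, a cell layer that also expresses Krt7, Krt8, Krt18 and Krt19, summed to 65.2, 23.4 and 22.0 CPM in Grhl2_cKO replicates 1, 5 and 10 and 84.4, 43.7 and 49.2 CPM in control replicates 1, 3 and 7. Among them Msln held 17.4, 5.20 and 7.28 CPM in Grhl2_cKO and 45.3, 18.02 and 26.5 CPM in control (edgeR adjusted p = 0.0816), and none of the 5 tested was called by edgeR or DESeq2, with an unadjusted edgeR p under 0.05 for 1. Msln was called without Grhl2_cKO replicate 1. The other tested genes of the list had both signs: the log2 fold change was -0.18 ± 0.40 SE for Upk3b, -0.48 ± 0.28 for Upk1b, 0.23 ± 0.39 for Lrrn4 and 0.73 ± 0.59 for Wt1. Upk3b, Lrrn4 and Wt1 were highest in Grhl2_cKO replicate 1, at 32.1, 6.19 and 4.99 CPM, against 27.0, 4.26 and 2.02 CPM in control replicate 1. The 5 squamous markers, which include Krt4 and Krt13, summed to 2.95, 1.61 and 2.37 CPM in Grhl2_cKO and 14.6, 3.23 and 3.74 CPM in control. Control replicate 1 was the highest library for both sums, through Msln in the mesothelial list, as well as for the abundant keratins. Secretory markers summed to 101 to 199.9 CPM in Grhl2_cKO and 241 to 331 CPM in control, with 3 of 6 called lower, and 2 without Grhl2_cKO replicate 10 or 5 without Grhl2_cKO replicate 1. Ciliated markers summed to 130 to 163 CPM in Grhl2_cKO and 216 to 242 CPM in control, with 6 of 10 called lower, and 4 of 10 without Grhl2_cKO replicate 5 or 10 or control replicate 3. With all 6 libraries, 2.39% of all tested genes were called lower. The marker lists were chosen with earlier results of these data known.

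Neuroendocrine markers summed to 17.0 to 21.0 CPM in Grhl2_cKO and 9.42 to 13.7 CPM in control, with 2 of 5 called higher, and 0 without any of Grhl2_cKO replicates 5 and 10 and control replicates 3 and 7. Among all tested genes 1.23% were called higher. Heart muscle markers summed to 215 CPM in Grhl2_cKO replicate 1, 24.2 and 17.5 CPM in replicates 5 and 10 and 19.2 to 39.4 CPM in control, and edgeR and DESeq2 called none of its 5 tested genes. The fibroblast, endothelial and alveolar type 1 lists likewise held no gene called by edgeR or DESeq2, and for these 4 lists no unadjusted edgeR p lay under 0.05. In the alveolar type 2 list edgeR called none of 6 (3 had an unadjusted p under 0.05) and DESeq2 called 2. Sums of all 5 lists overlapped between genotypes. In the leukocyte list Lcp1, an actin bundling gene that epithelia also express, was called lower, at 37.4 to 42.4 CPM in Grhl2_cKO and 109 to 114 CPM in control, and no other member was. Of the lung epithelium list Epcam was the called member of 5. No listed marker was at 0 in all 6 libraries. The part of any of these cell types in the keratin values was not tested.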

How the data were processed

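Raw counts by Entrez gene, with a gene length, were deposited as 1 table. Per the submitters' processing notes, bcl2fastq 2.17.1.14, featureCounts, edgeR 3.16.5, limma 3.30.12 and build mm10 were used. The aligner, the strand setting and the treatment of reads with several matches were not given in the sources used here. Symbols and positions came from a RefSeq gene table (GRCm38.p6), which matched 25275 of 27179 identifiers (93.0%), and overlaps and near copies (95% identity over 100 bases) from GENCODE transcripts.

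The deposited counts of all 6 libraries were tested with edgeR 4.0.16 in R 4.3.3: filterByExpr by genotype (minimum count 10, minimum total 15; 14842 genes), TMM, estimateDisp, glmQLFit (newer quasi-likelihood method), glmQLFTest, no covariate, Benjamini-Hochberg threshold 0.05. CPM uses TMM-scaled library sizes (factors 0.981 to 1.01). The common biological coefficient of variation was 9.52%. Replicates of a genotype differed by more than counting noise (chi-square per degree of freedom 7.72 to 12.9), so none was deposited again. The test was also run on simulated counts with known changes.

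Named genes were the 9 members, the called and the 5 most abundant other keratins, up to 4 called genes of each list, Grhl2, Epcam and the 5 genes nearest in profile to Krt8 and to Krt23. Other genes were named after their values were seen. Members and lists were chosen with earlier results of these data known. Alternatives were RLE and total-count scaling, no filter, at least 1 CPM in 3 libraries, limma-voom (limma 3.58.1), DESeq2 1.42.0, robust quasi-likelihood, sex as a covariate, each library left out and, chosen after seeing the data, the older quasi-likelihood method.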

Additional observations from a re-analysis of the deposited data

How the results depend on the processing

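Of the 7 tested members, all but Krt19 kept their direction under the 15 alternatives. Of the other 6 tested keratins, Krt4, Krt87 and Krt1 kept theirs where tested, and Krt10 (-0.13 to 0.08), Krt79 (-0.35 to 0.06) and Krt17 (-0.43 to 0.55) did not. Without 1 library, the log2 fold change of Krt19 ranged from -0.48 to 0.013 (reversed without control replicate 1), that of Krt80 from -1.18 to -0.83 and that of Krt15 from -1.24 to -0.57. Krt80 lost its call with RLE scaling (-1.01), the filter of 1 CPM (-1.01), limma-voom (-1.01), sex as a covariate (-1.003) and the older quasi-likelihood method (-1.02). Its fold change stayed near its value while the adjusted p crossed the threshold (0.0499 against 0.0504 to 0.0722). Krt8 gained a call with DESeq2 (-0.47). The number of simple keratins called lower was 1 in those 5 settings and 1 in each fit without a library, and that of basal keratins called ranged from 0 to 1. Genes called numbered 537, and 249 to 504 without a library. Without division by length, type II over type I was 1.27 in Grhl2_cKO and 1.27 in control. Ranks by CPM in control were 425 for Krt7, 468 for Krt19, 538 for Krt8 and 1146 for Krt18. With no filter Krt5 and Krt14 were tested and not called (edgeR adjusted p = 0.569 and 0.826). The causes were not tested. No paired analysis was possible because the genotypes share a single replicate number. Krt80 rests on 24 to 72 counts per library, and Krt5 and Krt14 are below what this depth can compare.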

Other observations

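No tested gene within 250 kb of Krt18 was called between genotypes. Of all tested genes 2.39% were called lower and 1.23% higher, so the lack of calls among these few neighbours says little about the region. On the side of Krt18 away from Krt8, Eif4b, encoding a translation initiation factor, lies 41.7 kb from Krt18 and averaged 635 CPM in Grhl2_cKO and 627 CPM in control, with a log2 fold change of 0.02 ± 0.08 SE (edgeR adjusted p = 0.982). Tns2, a tensin gene, had 0.06 ± 0.10 SE, Spryd3 -0.02 ± 0.08, Csad -0.04 ± 0.07 and Zfp740 0.02 ± 0.06, and Rarg, a retinoic acid receptor gene, -0.06 ± 0.06 SE. On the other side, beyond Krt8, the log2 fold change was -0.12 ± 0.29 SE for Krt79, -1.30 ± 0.49 for Krt4 and -0.51 ± 0.41 for Krt1. The last 2 are thus larger than that of Krt8, with wide errors, at mean levels of 2.03 and 0.446 CPM in Grhl2_cKO and 5.12 and 0.638 CPM in control. These neighbours were chosen after the values were seen.

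Krt15 and Krt19 lie 4861 bp apart on chromosome 11. Of the 7 tested members Krt15 varied most among Grhl2_cKO libraries relative to its mean, with 20.9 CPM in replicate 1 and 8.28 and 12.6 CPM in replicates 5 and 10. In the same libraries the summed secretory markers were 199.9, 101 and 104 CPM, and the mesothelial markers 65.2, 23.4 and 22.0 CPM. Heart muscle markers (215, 24.2 and 17.5 CPM) and fibroblast markers (1681, 812 and 958 CPM) were likewise highest in replicate 1. So were the ciliated, leukocyte, squamous, basal cell, alveolar type 1 and alveolar type 2 sums, and this pattern is thus not particular to a few lists. The endothelial, neuroendocrine and lung epithelium sums were lowest there. Any relation of these sums to Krt15 was not tested.

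Krt6a, a type II keratin of stressed and stratified epithelia, had no counts in the 3 Grhl2_cKO libraries and 9, 0 and 10 counts in control replicates 1, 3 and 7. With all 6 libraries it was too low for the filter and no test is given. Without control replicate 3, edgeR called 1 of the squamous markers, a list that includes Krt6a. Krt4 was not that gene (edgeR adjusted p = 0.199).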
